A study of Mus musculus with 8 samples.

Results

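The nuclear genes for subunits of the oxidative phosphorylation complexes were examined in ribosome footprints and total RNA of mouse neurons. They were taken by symbol, as genes whose GENCODE M21 name begins with Nduf and 1 of the letters a, b, c, s or v and a digit, with Uqcr, with Cox and a digit from 4 to 8, or with Atp5, and the genes Sdha, Sdhb, Sdhc and Sdhd. This gave 84 of the 18301 genes in the table, namely 37 for complex I, 4 for complex II, 8 for complex III, 18 for complex IV and 17 for complex V. The rule used names alone and no measured value. The subunits encoded by mitochondrial DNA were not analysed here, since the table held 0 mitochondrial genes.

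The neurons were labelled as cortical and glutamatergic, were at day 8 in vitro and had been differentiated from CGR8, a mouse embryonic stem cell line. They were either wildtype (WT) or labelled as an Eif4g1/Eif4g3 double-knockout (DKO), and the study concerns microexons of those genes, whose proteins are the scaffolds that bring the ribosome to capped mRNA. All cultures received cycloheximide, which stalls ribosomes, at 100 µg/ml for 5 minutes. There were 2 libraries in each of 4 groups, namely footprints of WT, footprints of DKO, RNA of WT and RNA of DKO, and replicates 1 and 2 are named in that order throughout. The labels give each library a culture code and a replicate number. WT replicate 1 carries a numbered code, as the DKO cultures do, while WT replicate 2 is coded as WT alone. What the codes stand for is not stated in the labels. The sources used here do not give the number of knockout clones, and p-values cover only how far these few libraries differ, which may be technical. Depth ran from 10490535 to 19753419 estimated counts in footprints and from 14762047 to 44786643 in RNA. The whole-gene count of Eif4g1 stood at 288 and 279.9 CPM (counts scaled to a common library total) in WT RNA and at 125 and 305 CPM in DKO RNA, so that it was low in 1 of the 2 DKO cultures. That of Eif4g3 stood at 120.1 and 128 CPM in WT and 103 and 138 CPM in DKO RNA. Such counts cannot tell transcripts with a microexon from those without it and leave the label unchecked.

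The respiratory chain passes electrons from NADH (complex I) or succinate (complex II) through complex III to oxygen at complex IV. The proton gradient built by complexes I, III and IV drives ATP synthase, complex V. Neurons depend on this pathway for most of their ATP. Each complex is built from subunits in fixed numbers, most of them made on cytosolic ribosomes, so that the footprints on each subunit's mRNA can be set beside the number of copies the complex needs.

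The members together took 2.94% and 2.90% of the footprint counts in WT and 2.78% and 2.92% in DKO. In RNA they took 1.69% and 1.58% in WT and 1.67% and 1.58% in DKO. Their share of footprints was thus higher than their share of RNA in all 4 cultures, and WT and DKO overlapped in both assays. Complex V took the largest share of footprints of the 5 complexes, 1.06% and 1.01% in WT, followed by complex I with 0.880% and 0.899%. Of the 84 genes, 78 passed the filter on low counts and were tested. The other 6, Cox4i2, Cox6a2, Cox7b2, Cox8b, Cox8c and Ndufa4l2, are tissue-restricted relatives of other members and had at most 21 counts in any library.

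The first comparison set footprint counts against RNA counts in the same genotype, as log2 ratios centred on the typical gene. In WT, 69 of the 78 tested members were called higher in footprints than in RNA (edgeR quasi-likelihood test, Benjamini-Hochberg adjusted p under 0.05 over 12898 genes), where 31.4% of all tested genes were called higher. In this fit 1 member, Cox7a2l, was called lower, against 33.8% of all tested genes. With protein-coding isoforms alone 4 were called lower in WT, and Ndufa10 turned from higher to a log2 ratio of -0.76. The median log2 ratio was 1.01 for the members and -0.02 for all tested genes. The excess was found in every complex, with medians of 1.06 for complex I (33 of 36 called higher), 0.72 for complex II (3 of 4), 0.86 for complex III (7 of 8), 0.98 for complex IV (10 of 13) and 1.03 for complex V (16 of 17). In DKO the count was again 69 higher and 1 lower, where 32.1% and 33.3% of all tested genes were called higher and lower, the median was 1.01, and 68 genes were called higher in both genotypes. With the 2 assays scaled separately, the WT median was 0.78 with 64 called higher.

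**Figure D1:**
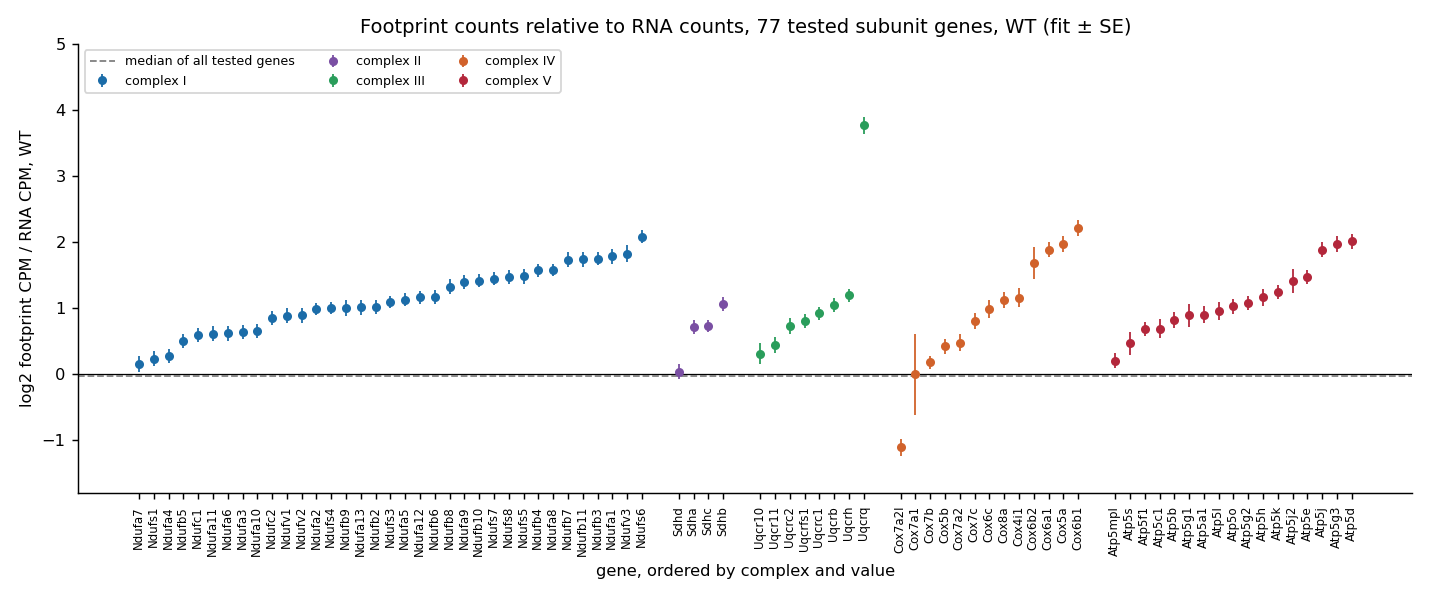
Log2 ratio of footprint CPM to RNA CPM in WT for 77 of the 78 tested subunit genes (points, with the standard error of the fit as bars), grouped and coloured by complex. The dashed line marks the median of all tested genes; all points but Cox7a1 and Cox7a2l lie above 0, Uqcrq is highest at 3.77 and Cox7a2l lowest at -1.10.

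Uqcrq (chromosome 11, 53427922 to 53430831, GRCm38), a small subunit of complex III near its quinone site, had the highest ratio. It stood at 628 and 567 CPM in WT footprints and at 43.2 and 44.6 CPM in WT RNA, a log2 ratio of 3.77 ± 0.12 (adjusted p = 2.79e-09, edgeR). In DKO the values were 547 and 595 CPM and 50.1 and 44.5 CPM, and in all 4 cultures the footprint value was far above the RNA value. None of the 28-base stretches of its coding sequence occurs in another GENCODE gene, and 34.7% of its footprint counts were on isoforms annotated as non-coding. Next came Cox6b1 (chromosome 7, 30616861 to 30626151), the complex IV subunit that faces the intermembrane space, at 1082 and 1112 CPM in footprints and 247 and 226 CPM in RNA of WT (log2 ratio 2.21 ± 0.12). Ndufs6, a zinc-binding subunit of complex I, followed with 226 and 233 CPM in footprints and 55.5 and 52.8 CPM in RNA (log2 ratio 2.08 ± 0.10).

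At the other end stood Cox7a2l (chromosome 17, 83501918 to 83517330), which despite its name acts in joining complexes III and IV into supercomplexes. It had 143 and 129.6 CPM in WT footprints and 307 and 279.7 CPM in WT RNA, a log2 ratio of -1.10 ± 0.13 (adjusted p = 1.66e-05, edgeR). DKO gave 127 and 156 CPM and 343 and 282 CPM, with every footprint value below every RNA value. Of its coding 28-base stretches, 81.7% occur also in GENCODE genes outside the table, so its count is uncertain. Sdhd, a membrane anchor of complex II, had nearly equal values of 126 and 124 CPM in footprints and 126 and 117 CPM in RNA (log2 ratio 0.04 ± 0.11, adjusted p = 0.76, edgeR). Cox7a1, the heart and muscle form of subunit 7a, was at or under 1.18 CPM in all libraries, too low to give a ratio (log2 ratio -0.00 ± 0.61).

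The members' coding regions were short, with a median of 408 bases against 1353 for all tested genes that have one. Over all 12400 such genes the count ratio fell as coding length rose (Spearman's rho -0.18 across genes, which are not replicates), and rho was -0.07 among 77 members. Footprints per coding length relative to RNA per transcript length gave a median log2 ratio of 0.58 for the members and -0.35 for all genes, and 66 of 77 members lay above the latter. That ratio fell more steeply with coding length than the count ratio, with rho -0.43 over all such genes and -0.33 among members. It therefore also varied with coding length and was higher in short genes. The part of coding length in the excess was not tested.

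To compare subunits with each other, counts were divided by length. Footprints of coding isoforms were divided by coding length and RNA by transcript length, and all genes of a library were scaled to the same sum in each library, as TPM are; levels below are on this scale, and are called parts. On it, the median subunit position of complex IV had the highest footprint level in WT (1448 over 10 positions). Complex V followed (1029.5 over 13), then complex III (914 over 8), complex I (489.7 over 36) and complex II (293 over 4). The RNA medians had the same order, at 856, 748, 391, 331 and 203. DKO kept that order in both assays, and the part of coding length in it was not tested. A position is 1 place in the complex, with paralogs that fill it added together. The counts behind 14 members are uncertain, since over 50% of their coding 28-base stretches also occur in other GENCODE genes: Ndufs3, Ndufs5, Ndufa12, Ndufb4, Uqcrb, Uqcr11, Cox5b, Cox6c, Cox7a2l, Cox7c, Atp5g1, Atp5g2, Atp5h and Atp5l. The share is 82.1% for Ndufs5, 91.8% for Uqcrb and 76.7% for Cox5b.

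Subunits of one complex did not have equal footprint levels. The standard deviation of log2 levels within a complex in WT footprints was 1.09 for complex I, 0.98 for II, 1.17 for III, 1.03 for IV and 0.79 for V. In WT RNA it was 0.77, 0.49, 0.96, 0.51 and 0.83. On this scale footprint levels were more spread than RNA levels in complexes I to IV and about as spread in V. The placing of reads among isoforms moves these values. In 11 tested members more than 25% of the footprint counts were on isoforms annotated as non-coding, which the coding level leaves out. With whole-gene counts over the length of the most counted coding isoform, the footprint SDs were 0.97, 0.87, 1.29, 0.62 and 0.73, and the RNA SDs 0.85, 0.76, 0.93, 0.52 and 0.86. The footprint SD then stood above the RNA SD in complexes I to IV and below it in V. Position levels taken relative to the median of their complex correlated at 0.996 (Pearson, log2, 71 positions) between WT and DKO footprints and at 0.541 between footprints and RNA of WT, which share cultures and gene lengths; these are descriptions across genes.

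**Figure D2:**
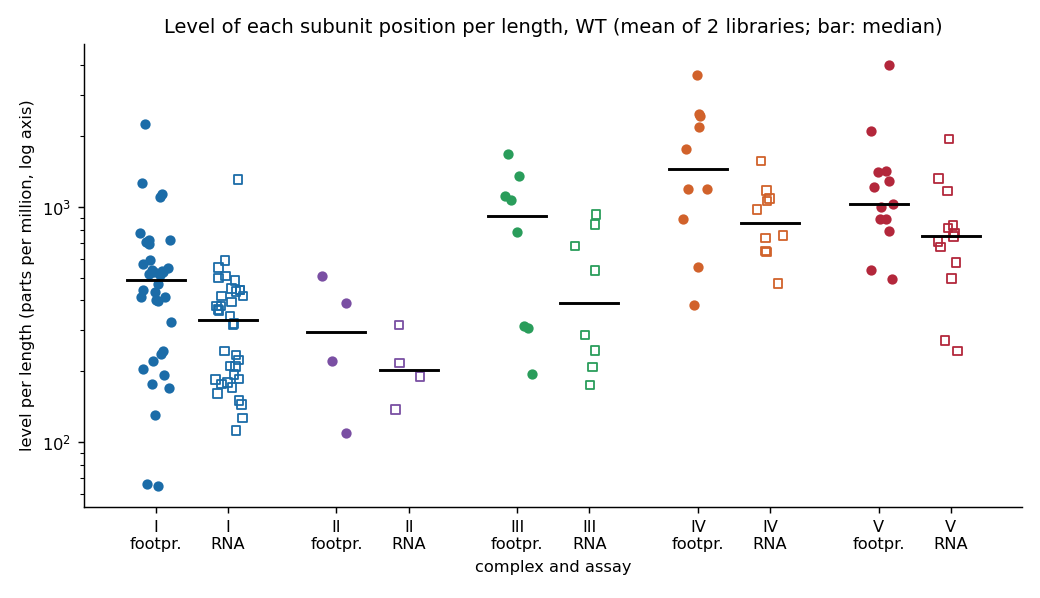
Level per length of each subunit position in WT (parts, a share of the summed level of all genes, log axis, mean of 2 libraries), with footprints as filled circles, RNA as open squares and the median of each complex as a bar. The medians fall from complex IV to complex II in both assays, and footprint points are more spread than RNA points in complexes I to IV.

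In complex I, the 7 catalytic core subunits carry the flavin and the iron-sulfur clusters and the accessory subunits surround them. The highest footprint level belonged to Ndufa4, a small protein first assigned to complex I and later found with complex IV, at 2112 and 2405 in WT footprints and 1339.9 and 1274 in WT RNA. Ndufa1, a short membrane subunit needed for assembly, followed at 1217 and 1297 in footprints. Ndufs5, of the intermembrane-space side, stood at 1128 and 1127 and Ndufv3, an accessory subunit next to the NADH-binding site, at 1130.3 and 1071. These were the 4 accessory subunits above 1000. The lowest footprint level was that of Ndufs1, the largest core subunit, which carries iron-sulfur clusters, at 67.1 and 62.7 in footprints and 107 and 117 in RNA. The highest core subunit was the iron-sulfur subunit Ndufv2, at 744 and 667 in footprints. Ndufv1, which binds NADH and the flavin, stood at 178 and 162.

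Within complex I the footprint level fell with coding length (Spearman's rho -0.70 over 36 genes in WT and -0.69 in DKO), and so did the RNA level (rho -0.54 in WT). Ndufs1 has the longest coding region of the complex, 2181 bases, and Ndufa1 the shortest, 210 bases. The part of length in these levels was not tested. Ndufa10, an accessory subunit related to nucleoside kinases, was nearly as low as Ndufs1 with 66.6 ± 9.32 (SD, n = 2) in WT footprints, but 66.2% of its footprint counts were on non-coding isoforms, and its whole-gene level was 189.7. Ndufa5, Ndufa7 and Ndufb8 had 71.3%, 45.8% and 56.3% of their footprint counts there, and their footprint levels rose from 243, 177 and 323 to 806, 303 and 700.0 with whole-gene counts. The level of Ndufa4 fell to 1503 in that way and stayed the highest of the complex in footprints and RNA. Ndufb2 and Ndufb8 share 41.0% and 20.2% of their coding 28-base stretches with Gm42420 and Gm20538, so that their counts are uncertain.

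A group of 8 complex I genes and 2 genes of other complexes share a sequence at the start codon. Their main coding isoform holds AAGATGGCG with the ATG of that run as the start codon, the core of the TISU element, a start context described on short leaders and also read by the factor YY1 in DNA. The 30-base windows around the start are shown because initiation is the step at which eIF4G acts; capitals mark the shared run, and coordinates are GRCm38.
Ndufa6 (chr15:82354211-82354240, minus strand): ttcctcggcAAGATGGCGgccgcggccacc
Ndufa9 (chr6:126849095-126849124, minus strand): ttgtgggagAAGATGGCGgccgccgtccgc
Ndufc1 (chr3:51408913-51408942, minus strand): ctgcggaacAAGATGGCGccgtccgtagtg
Ndufs4 (chr13:114388039-114388068, minus strand): gcctacaggAAGATGGCGgcggtctcaatg
Ndufs6 (chr13:73328429-73328458, minus strand): gtcaccggcAAGATGGCGgcggtgctgacc
Ndufs7 (chromosome 10, plus strand, across a splice junction): gccgaggccAAGATGGCGgcgctggcggct
Uqcrc1 (chr9:108936707-108936736, plus strand): ggaagttagAAGATGGCGgcgtccgcagtc
Atp5j2 (chromosome 5, minus strand, across a splice junction): caggacttcAAGATGGCGtcactcgtgccg
The windows of the other members that hold it are not printed. The annotated leaders of these isoforms were not all short, from 13 bases in Ndufa9 and 24 in Ndufs7 to 202 in Ndufs4 and 547 in Atp5j2. The run stood at the start codon of 10 of 77 tested members (13.0%) and of 298 of 12459 tested genes with a complete coding isoform (2.39%). In the 10 members the log2 difference of DKO to WT ranged from -0.09 to 0.10 in footprints and from -0.12 to 0.09 in footprints relative to RNA, with 5 of 10 above 0 in the latter. Among members, the WT log2 ratio of footprint to RNA counts had a median of 1.0 with the run and 1.021 without it. Over all tested genes with a complete coding isoform the medians were 0.246 and -0.019. The part of the run in these ratios was not tested.

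The same run and 2 other short motifs were also searched in the promoters of 68 members found in the RefSeq table (GRCm38.p6, 250 bases before to 50 after the start, both strands). A gene was counted if any of its promoters held the motif. AAGATGGCG (YY1 or TISU core) was found for 10.3% of members and 1.64% of the 27025 genes in that table, tested here or not. GCGCATGCG (NRF1, a regulator of respiratory genes) was found for 11.8% and 1.95%, and CCGGAAGT (GABPA and other ETS factors) for 7.35% and 4.31%. The NRF1 run was found for Ndufa8, Ndufa11, Uqcrc1, Uqcr11, Cox6a1, Atp5g2, Atp5k and Atp5l. A match is a description of letters and not a binding site.

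Complex II is succinate dehydrogenase, which has 1 copy of each of 4 subunits and no mitochondrially encoded one. In WT footprints Sdhc, a membrane anchor, was highest at 499 and 519.7 and Sdha, the flavin-binding catalytic subunit, lowest at 109 and 109.6. The iron-sulfur subunit Sdhb stood at 397 and 382 and the other anchor Sdhd at 219.8 and 223. In WT footprints the 2 replicates of each gene lay closer together than any 2 of the 4 genes. In WT RNA the order differed, with Sdhb at 336 and 291, Sdhc at 223 and 209, Sdhd at 198 and 183 and Sdha at 125 and 150.0.

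In complex III, the hinge protein Uqcrh, which holds cytochrome c1, had the highest footprint level at 1660.2 and 1689 in WT, and the core protein Uqcrc2 the lowest at 219 and 171. The other core protein, Uqcrc1, stood at 314 and 298 and the Rieske iron-sulfur protein Uqcrfs1, an electron carrier of the complex, at 328 and 292. The small subunits Uqcrq, Uqcr10, Uqcr11 and Uqcrb all lay higher, from 782 to 1356 in mean footprint level. In RNA the same genes split alike except Uqcrq, the lowest of the 8 at 179 and 171. Cyc1, the cytochrome c1 subunit whose symbol the rule leaves out, had 229 and 235 CPM in WT footprints and 79.9 and 76.5 CPM in WT RNA. Cycs, the mobile carrier cytochrome c, had 298 and 260.1 CPM and 266 and 259 CPM.

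In complex IV, Cox6b1 had the highest footprint level of its complex, 3503 and 3698 in WT, while its RNA level of 774 and 706 was below the complex median. The small membrane subunit Cox8a and the larger Cox4i1 followed in footprints, with 2377 and 2562 for Cox8a and 2725 and 2147 for Cox4i1, and Cox4i1, which binds ATP as a regulator, had the highest RNA level at 1714 and 1422. The zinc-binding subunit Cox5b and the small Cox7b were lowest among the filled positions with 556 and 548 for Cox5b and 329.7 and 438 for Cox7b. Those 2 genes and Cox7c had 48.3%, 63.5% and 57.1% of their footprint counts on non-coding isoforms, and whole-gene counts raised their WT footprint levels to 867, 974 and 1831.

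Several complex IV positions are filled by paralogs used in different tissues, and the neurons used the forms known from most tissues. The lung form Cox4i2 made up 0.00669% and 0.0450% of subunit 4 in WT footprints, and the muscle forms Cox6a2 and Cox7a1 made up 0.0757% and 0.0944% of subunit 6a and 0.277% and 0.111% of subunit 7a. In DKO footprints Cox6a2 made up 0.148% and 0.221%, from counts of 9 and 21, and Cox7a1 0.329% and 0.331%. The muscle markers Ckm, Myh6, Myh7, Actc1 and Ttn, of which 4 are in the table, summed to 6.93 and 4.65 CPM in WT and 7.49 and 9.22 CPM in DKO footprints, and their part in those shares was not tested. The testis forms Cox6b2, Cox7b2 and Cox8c differed among themselves. Cox6b2 had the largest share of these forms, with 0.771% and 0.686% of subunit 6b in WT footprints and 1.56% and 2.12% in WT RNA. The shares of the 2 assays are measured in unlike ways, as footprint levels use coding isoforms only and RNA levels use all isoforms. The part of this in the gap between them was not tested. Of the RNA counts of Cox6b2, 54.4% were on isoforms annotated as non-coding. In WT footprints Cox7b2 made up 0% and 0.0579% of subunit 7b and Cox8c 0.00916% and 0% of subunit 8. Cox6b2 was the only one of these forms besides Cox7a1 to pass the filter. Paralogs that replace each other share 26.5% (Cox8a and Cox8c) to 62.2% (Ndufa4 and Ndufa4l2) of aligned residues in the translated GENCODE coding sequences, and none of the coding 28-base stretches of the complex IV pairs occurs in another gene of the table. Ndufa4l2, the hypoxia-induced relative of Ndufa4, had at most 9 counts in any library.

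In ATP synthase the subunits occur in unequal numbers, 3 alpha, 3 beta and 8 c beside 1 of each other. Levels were divided by the median of 10 single-copy positions in the same library. In WT footprints the c subunit, with its 3 genes added, stood at 3.81 and 3.69 times the single-copy median, beta (Atp5b) at 0.979 and 0.950 times and alpha (Atp5a1) at 0.835 and 0.820 times. In WT RNA c stood at 2.83 and 2.78, beta at 1.90 and 1.91 and alpha at 1.07 and 1.09 times. The catalytic alpha and beta subunits thus had no footprint excess over single-copy subunits in WT, and c stood above them but below its 8 copies. In DKO footprints the values were 4.21 and 3.88 for c, 1.23 and 0.971 for beta and 1.05 and 0.745 for alpha. They overlapped WT for alpha and beta, while both c values lay above both WT values on this scale. In DKO RNA, c stood at 2.63 and 2.64, below both WT values, and neither difference was tested.

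These ratios move with the length used. With whole-gene counts over the most counted coding isoform, and b (Atp5f1, over its longest coding isoform in GENCODE) added to make 11 single-copy positions, the WT footprint values were 4.22 and 4.13 for c, 1.12 and 1.13 for beta and 0.931 and 0.919 for alpha. On that scale c stood at 4.22 and 4.19 in DKO footprints, and the genotypes overlapped. With footprints divided by transcript length, the means were 4.77, 1.97 and 1.12. Alpha and beta have the longest coding regions of the complex, 1659 and 1587 bases, and the part of length was not tested.

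**Figure D3:**
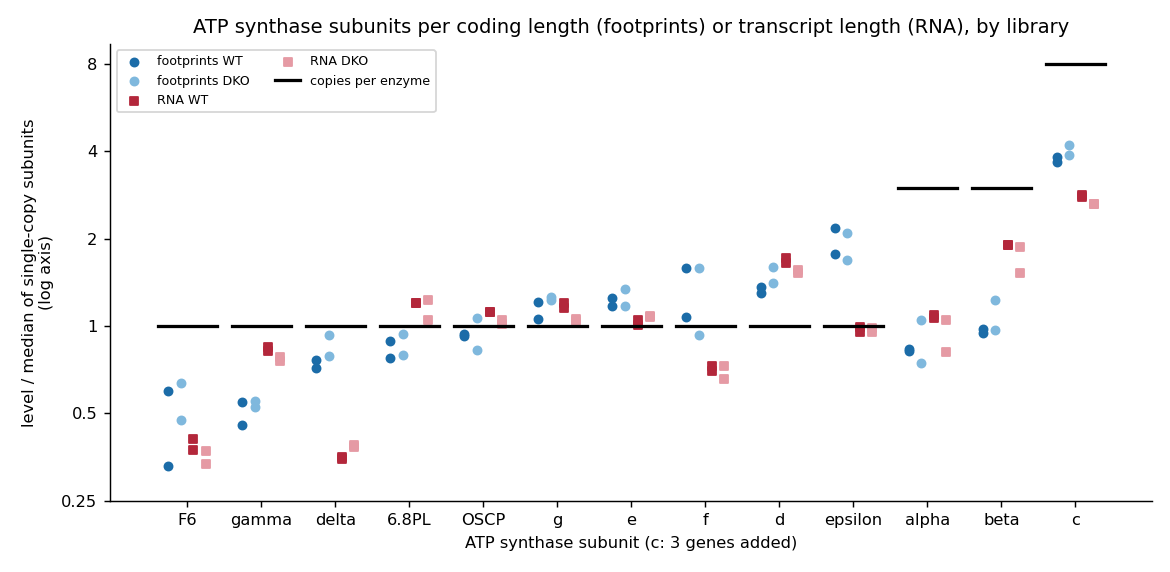
Level of each ATP synthase subunit divided by the median of the 10 single-copy subunits (log axis), 2 points per group for the 2 libraries, with copies per enzyme as black bars. Alpha and beta lie below their bar at 3 and c below its bar at 8 in every library of both assays.

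The single-copy subunits themselves ranged widely. In the F1 head, the central-stalk subunit epsilon (Atp5e) was highest in WT footprints at 1.78 and 2.18 times the single-copy median and the shaft subunit gamma (Atp5c1) low at 0.546 and 0.457, with delta (Atp5d) at 0.764 and 0.715. In RNA delta was the low one of the head, at 0.348 and 0.354 against 0.847 and 0.822 for gamma. In the peripheral stalk, which holds the head still, d (Atp5h) stood at 1.37 and 1.30, OSCP (Atp5o) at 0.923 and 0.940 and F6 (Atp5j) at 0.329 and 0.598 in footprints. F6 had 51.3% of its footprint counts on non-coding isoforms, and with whole-gene counts it was itself the median of the 11 single-copy positions. The small membrane subunits f (Atp5j2), e (Atp5k), g (Atp5l) and the 6.8-kDa proteolipid (Atp5mpl) lay between 0.776 and 1.58 times in WT footprints. The stalk subunit b (Atp5f1) had a level of 605 parts in mean WT RNA and no coding isoform in the table, so it has no footprint level on this scale; its CPM were 697 and 642 in WT footprints. Atp5s, or factor B, which is not counted as a fixed subunit, was lowest of the members for this complex at 54.0 and 40.6 parts. Atpif1, the inhibitor that binds the head when the gradient fails, had 651 and 564 CPM in WT footprints and 298 and 242 CPM in WT RNA.

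The c subunit is encoded by 3 genes. Their mature proteins are the same, and they differ in the targeting peptide that is removed on import. The last 78 residues were identical in all 3 encoded proteins, while 84.6% of the bases there were the same between Atp5g1 and Atp5g2 and 79.1% over the 86 residues that Atp5g1 and Atp5g3 have in common. A stretch of 90 coding bases near the end shows how the genes can be told apart by reads. Capitals mark the 24 positions at which the 3 genes are not all alike, and all 3 stretches encode the same residues (GRCm38, minus strand).
Atp5g1 (chr11:96073107-96073196): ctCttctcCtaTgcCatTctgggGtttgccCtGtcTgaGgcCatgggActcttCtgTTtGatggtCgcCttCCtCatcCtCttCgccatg
Atp5g2 (chr15:102663017-102663106): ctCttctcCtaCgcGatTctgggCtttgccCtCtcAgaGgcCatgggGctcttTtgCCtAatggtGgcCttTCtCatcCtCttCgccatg
Atp5g3 (chr2:73908596-73908685): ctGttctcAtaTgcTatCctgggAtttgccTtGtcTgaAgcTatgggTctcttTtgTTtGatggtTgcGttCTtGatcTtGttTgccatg
Every 28-base coding stretch of Atp5g1 and of Atp5g2 also occurs in a GENCODE gene outside the table, so that their counts are uncertain. Atp5g3 supplied 55.4% and 55.0% of the c-subunit level in WT footprints and 37.6% and 40.3% in WT RNA. Atp5g1 supplied 32.7% and 30.4% in footprints and 44.1% and 40.9% in RNA, and Atp5g2 11.9% and 14.6% in footprints and 18.3% and 18.8% in RNA. Atp5g3 was thus the leading source in footprints and Atp5g1 in RNA. In DKO the Atp5g3 share was 57.3% and 50.1% in footprints and 36.8% and 39.2% in RNA, with the replicates of each genotype overlapping in footprints.

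**Figure D4:**
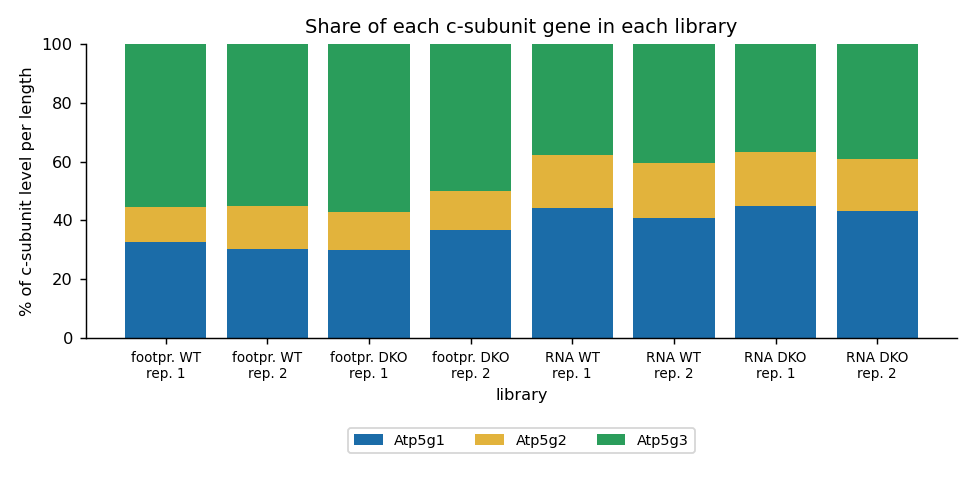
Share of Atp5g1, Atp5g2 and Atp5g3 in the summed level per length of the c subunit (percent, stacked bars, 1 bar per library). The Atp5g3 share is 50.1% to 57.3% in the 4 footprint libraries and 36.8% to 40.3% in the 4 RNA libraries.

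The comparison of genotypes asked whether the subunits changed in DKO. No member was called in footprints, RNA or footprints relative to RNA (edgeR quasi-likelihood test, adjusted p of at least 0.836, 0.851 and 1). Over all tested genes 0.00775%, 0.0155% and 0% were called. At an unadjusted p under 0.05, 1 member passed in each contrast, Cox6b2 in footprints and Ndufs1 in RNA and in the ratio. That is 1.28% of members in each contrast, against 5.62%, 5.57% and 0.853% of all tested genes in footprints, RNA and the ratio. DESeq2 and limma-voom called 0 members in any of the 3. The median log2 difference of DKO to WT was -0.03 in footprints (26 of 78 above 0), -0.00227 in RNA (38 above 0) and -0.04 in the ratio (33 above 0), where the medians of all tested genes were 0.00284, -0.00147 and 0.01. In bulk samples, fewer cells of a type and less RNA per cell cannot be told apart.

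For each gene taken alone, the fit gives an interval for the difference between these few libraries, and not for an effect of the knockout. The 95% interval of the difference lay within 1.5-fold in either direction for 76 of 78 members in footprints and 76 in RNA, where it did so for 71.0% and 73.7% of all tested genes. The exceptions in both were Cox6b2 and Cox7a1, the tested members with the fewest counts. The standard deviation of the log2 differences over members was 0.13 in footprints and 0.11 in RNA, against 0.29 and 0.26 over all tested genes. Both DKO values lay above both WT values for 4 members in footprints and below for 13, where 16.3% and 16.2% of all tested genes did so. In RNA the counts were 4 and 12, against 19.6% and 18.9%, and in the ratio 6 and 7, against 13.8% and 13.2%. In either direction, 32.5%, 38.4% and 26.9% of all tested genes did not overlap. The 13 lower members in footprints were thus a share near that of all genes, and the higher ones were a smaller share than in all genes in both assays.

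**Figure D5:**
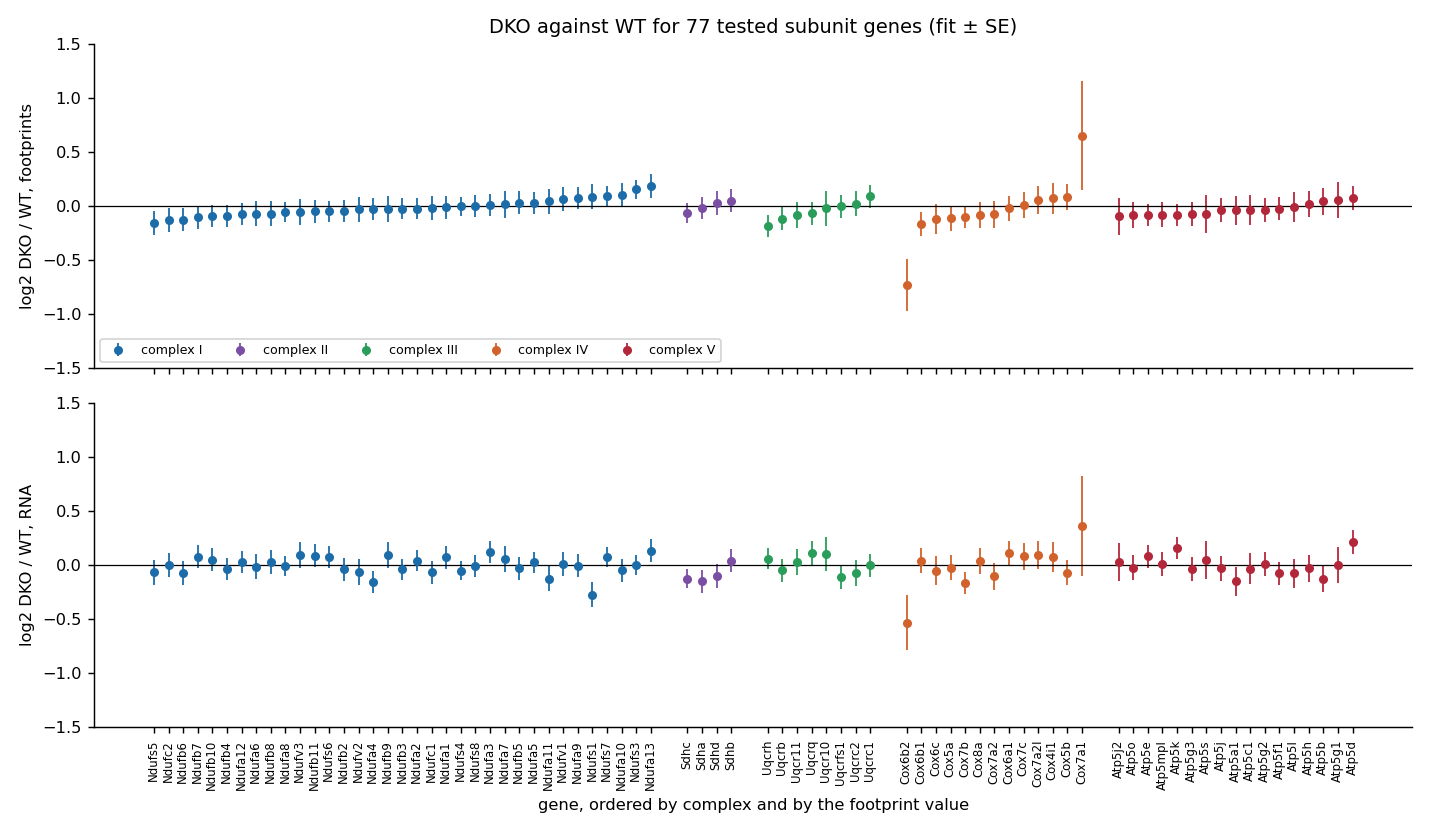
Log2 difference of DKO to WT (points, with the standard error of the fit as bars) for 77 of the 78 tested subunit genes in footprints (upper panel) and RNA (lower panel), in the same gene order. All points but Cox6b2, Cox7a1 and, in RNA, Ndufs1 and Atp5d lie within 0.2 of 0.

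At the median, the members' genotype differences were smaller than the gaps between WT replicates. The 2 measures are unlike, since a difference between means of 2 libraries varies less than one between single libraries. The median absolute log2 difference between the 2 WT cultures was 0.114 in footprints and 0.122 in RNA, and that between the genotype means, each of 2 libraries, 0.0608 and 0.0616. Over all tested genes the same values were 0.170 and 0.130 between WT cultures and 0.108 and 0.0983 between genotypes. In RNA, WT replicate 2 was higher than WT replicate 1 for only 5 of 78 members. The genotype difference exceeded the gap between replicates in both genotypes for 8 members in footprints and 7 in RNA. These are 10.3% and 8.97% of members, against 19.6% and 24.0% of all tested genes. The sign of the median changed with the libraries left out. Its range was -0.0698 to 0.0374 in footprints and -0.0659 to 0.110 in RNA when single libraries or both libraries of a culture were left out.

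Cox6b2, the testis form of subunit 6b, had the lowest footprint difference on whole-gene counts. Of these counts, 30.5% in footprints and 54.4% in RNA were on isoforms annotated as non-coding. With coding isoforms alone, its share of subunit 6b was 0.771% and 0.686% in WT footprints against 0.576% and 0.854% in DKO footprints. These shares, which also depend on Cox6b1, overlapped between the genotypes. The part of non-coding isoforms in the Cox6b2 difference was not tested. Footprints of the gene measured 10.6 and 12.4 CPM in WT and 5.52 and 8.16 CPM in DKO footprints, and at 3.13 and 3.95 CPM and 2.52 and 2.40 CPM in RNA, without overlap in either assay. The log2 difference was -0.73 ± 0.24 in footprints (adjusted p = 0.836, edgeR) and -0.53 ± 0.25 in RNA (adjusted p = 0.851). Cox7a1 had the highest values, 0.65 ± 0.50 in footprints and 0.36 ± 0.46 in RNA, from levels of at most 1.18 CPM.

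In complex I the footprint extremes were Ndufa13, a subunit also known as GRIM-19, with 297 and 288 CPM in WT and 336 and 329 CPM in DKO (log2 difference 0.19 ± 0.11), and Ndufs5 with 381 and 374 CPM in WT and 372 and 308 CPM in DKO (-0.15 ± 0.11). Neither passed (adjusted p = 0.852 and 0.861, edgeR). Ndufs1 had 134 and 141 CPM in WT and 101 and 126 CPM in DKO RNA, a log2 difference of -0.27 ± 0.11 (adjusted p = 0.851, edgeR), while its footprints stood at 169.9 and 154 CPM in WT and 176 and 168 CPM in DKO. Its ratio of footprints to RNA therefore had the highest DKO to WT difference of the members, 0.36 ± 0.16 (adjusted p = 1). Ndufb7 had the lowest ratio difference of the complex, -0.18 ± 0.15. The 7 core subunits had a median footprint difference of 0.06 and the 29 tested accessory subunits one of -0.03.

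The RNA of Ndufs1 was lowest in DKO replicate 1. In that library members' RNA fell against the other 3 RNA libraries as transcripts got longer (Spearman's rho -0.54 over 77 members and -0.23 over 12459 genes). Long-coding members were low there beside Ndufs1, such as Atp5a1 with 961 and 897 CPM in WT and 769 and 905 CPM in DKO RNA, Atp5b with 1201 and 1082 CPM in WT and 995 and 1099 CPM in DKO, and Sdha with 166 and 174 CPM in WT and 141 and 167 CPM in DKO. In the other RNA libraries the members' rho with length was 0.24 to 0.33. Without RNA of DKO replicate 1, the RNA difference of Ndufs1 was -0.11 and its ratio difference 0.19. What sets this library apart was not tested.

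In complex II, Sdhb had the highest footprint and RNA differences (0.05 ± 0.11 and 0.04 ± 0.11), Sdhc the lowest in footprints (-0.06 ± 0.09) and Sdha the lowest in RNA (-0.15 ± 0.10). In complex III, Uqcrh had the lowest footprint difference, with 551 and 538 CPM in WT and 488 and 471 CPM in DKO (-0.18 ± 0.10, adjusted p = 0.849, edgeR). Its RNA was level at 246 and 229 CPM in WT and 247 and 248 CPM in DKO, and its ratio difference of -0.24 ± 0.14 was the lowest of the complex. Uqcrc1 had the highest footprint difference (0.09 ± 0.10), Uqcrq the highest RNA difference (0.11 ± 0.11), and Uqcrfs1 the lowest RNA and highest ratio differences (-0.11 ± 0.10 and 0.11 ± 0.15). In complex IV, Cox6b1 had 1082 and 1112 CPM in WT and 1035 and 922 CPM in DKO footprints (-0.16 ± 0.11) and the lowest ratio difference, -0.21 ± 0.16. The remaining members of complex IV had footprint differences from -0.12 (Cox6c) to 0.08 (Cox5b).

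In complex V, footprint differences ran from -0.09 ± 0.17 for Atp5j2 to 0.08 ± 0.11 for Atp5d, and 4 of 17 were above 0. Atp5d had 121 and 113 CPM in WT and 139 and 132 CPM in DKO RNA, the highest RNA difference of the complex (0.22 ± 0.11, adjusted p = 0.851, edgeR), without overlap. Atp5a1 had the lowest RNA difference (-0.15 ± 0.13). The ratio of footprints to RNA differed most for Atp5b (0.17 ± 0.17) and Atp5k (-0.24 ± 0.15), neither of which passed (adjusted p = 1 for each). For Atp5e, Atp5c1, Atp5h, Atp5j, Atp5o, Atp5f1, Atp5l, Atp5mpl, Atp5s and the 3 c genes, footprint differences were between -0.08 and 0.05.

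Genes that help build the complexes were listed apart from the subunits. Assembly factors of complex IV, which insert copper and heme and guide the subunits, had a median footprint difference of 0.06 (14 of 20 above 0). Those of complex I had 0.00943 (8 of 14), of complex III 0.03 (4 of 6), of complex II 0.01 (2 of 3) and of complex V 0.04 (2 of 3), and 10 regulators of mitochondrial biogenesis had -0.05 (5 of 10). None was called in footprints, RNA or the ratio (edgeR, adjusted p of at least 0.839 in footprints). The smallest p belonged to Sco1, a copper chaperone, with 16.1 and 15.6 CPM in WT and 19.0 and 20.1 CPM in DKO footprints (0.31 ± 0.12, adjusted p = 0.839). Surf1, a heme-insertion factor, had 63.5 and 62.6 CPM in WT and 69.9 and 74.7 CPM in DKO (0.20 ± 0.09), and Ndufaf8 of complex I 11.8 and 15.1 CPM in WT and 17.2 and 17 CPM in DKO (0.35 ± 0.16). The other pairs with the smallest p in their lists were Ecsit at 0.18 ± 0.12 beside Ndufaf8, Sdhaf4 at -0.15 ± 0.12 and Sdhaf3 at 0.02 ± 0.14, Ttc19 at 0.14 ± 0.11 and Bcs1l at 0.16 ± 0.14, and Tmem70 at 0.08 ± 0.09 and Atpaf1 at 0.04 ± 0.13. Ppargc1a, a coactivator of mitochondrial biogenesis, stood at -0.17 ± 0.11 and the transcription factor Nrf1 at 0.18 ± 0.11. In WT the assembly factors had lower median log2 ratios of footprints to RNA than the subunits, 0.25 for complex I factors (6 of 14 called higher, 2 lower) and 0.09 for complex IV factors (7 of 20 higher, 7 lower), where 31.4% of all tested genes were called higher and 33.8% lower. The partners left out by the symbols, Ndufab1, Cyc1, Cycs and Atpif1, had one of 1.37 (3 of 4 called higher) and DKO to WT differences in footprints of -0.05 ± 0.10, 0.03 ± 0.09, 0.03 ± 0.11 and 0.08 ± 0.13.

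The cell makeup of the cultures varied beside these values. Neuron markers summed to 3315 and 2921 CPM in WT and 2788 and 3176 CPM in DKO RNA. Of 5 glutamatergic markers 2, Slc17a7 and Tbr1, did not pass the filter. The list, mostly Slc17a6, was higher in both DKO cultures, at 169.8 and 84.2 CPM in WT and 229 and 184 CPM in DKO. The 3 GABAergic markers were lower in both, at 268 and 265 CPM in WT and 214 and 259.8 CPM in DKO. Oligodendrocyte markers (5 of 6 in the table, none at 0 throughout) were also lower in both DKO cultures, at 400.0 and 459 CPM in WT and 268 and 304 CPM in DKO. So were proliferation markers (4 of 5 in the table), at 183 and 243 CPM in WT and 136 and 162 CPM in DKO. None of these sums was tested, and 38.4% of all tested genes, taken singly, did not overlap between genotypes in RNA. Fibroblast and vessel markers were highest in WT replicate 2, at 166 and 429.6 CPM in WT and 209.7 and 79.1 CPM in DKO, as were progenitor markers at 366 and 554 CPM in WT and 371 and 388 CPM in DKO and astrocyte markers at 366 and 604 CPM in WT and 379 and 406 CPM in DKO. Pluripotency markers summed to at most 11.4 CPM. The part of cell makeup in the members' values was not tested. Without both libraries of WT replicate 2, 0 members were called in DKO against WT and their median was -0.0673 in footprints and -0.0659 in RNA.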

How the data were processed

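The 8 libraries hold footprints and total RNA of 4 cultures. The authors deposited estimated counts per transcript, made with kallisto, and the submitters' processing notes also name FastQC, Trimmomatic and Bowtie. The sources used here give no version, setting, strand or transcript set. Transcripts were matched by identifier to GENCODE M21 (60444 of 60528, where the other 84 held 0.0765% to 0.151% of counts) and summed to 18301 genes.

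Genes passing edgeR's filterByExpr (minimum count 10) in both assays were fitted over all 8 libraries with 4 group means, TMM scaling and the robust quasi-likelihood test (R 4.3.3, edgeR 4.0.16, limma 3.58.1), with Benjamini-Hochberg adjustment over 12898 genes and a threshold of 0.05. The fit leaves 4 residual degrees of freedom. It was tested on simulated data. Levels per length were described without a test, and values after ± are standard errors of the fit unless named SD. CPM use the library total scaled by TMM. Start windows and coding 28-base stretches came from the GENCODE transcripts, promoters from RefSeq.

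Footprints and RNA of a culture were paired by genotype and replicate number: the log2 gap between the 2 replicates had a correlation across genes of 0.638 (WT) and 0.218 (DKO) between assays over 12898 genes, and of 0.214 and -0.238 over the 78 members. For DKO replicate 2 the labels of footprints and RNA give the culture code in unlike forms, so that pair is less sure. Replicate numbers of WT and DKO do not pair cultures.

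Members and lists were chosen with earlier results of these data known. Named were, per complex, the extremes of level and of each genotype difference, the 3 highest and 3 lowest footprint to RNA ratios, tissue paralogs, all ATP synthase members, partners outside the symbols and 2 genes per list with the smallest p. Further members were described for their roles or for reads on non-coding isoforms after their values were seen. The values of 1 tested member are not reported here and are left out of the plots by gene. Alternatives were other scaling, filters, tests (DESeq2 1.42.0, limma-voom), isoforms, lengths, blocks and libraries left out.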

Additional observations from a re-analysis of the deposited data

How the results depend on the processing

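No member was called in DKO against WT under any alternative run, in footprints, RNA or their ratio, with or without any single library or culture. The median genotype difference ran from -0.0698 to 0.0374 in footprints, -0.0659 to 0.110 in RNA and -0.142 to 0.0923 in the ratio when libraries were left out. Members called higher in footprints than in RNA then numbered 67 to 70 in WT (median 0.95 to 1.14) and 63 to 72 in DKO (0.94 to 1.10), with 1 called lower in each. Scaling each assay separately gave medians of 0.78 in WT and 0.77 in DKO, no filter gave 1.07 in WT, and protein-coding isoforms alone gave 1.04 in WT, with 4 members called lower in both WT and DKO. With those isoforms Ndufa10 turned to -0.76 in WT (adjusted p = 0.000713, edgeR) and -0.40 in DKO (adjusted p = 0.0239), Cox5b to -0.00976 in WT and Cox7c to -0.13 in DKO, as counts on their non-coding isoforms were removed. The cause of the other shifts was not tested.

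With the replicate number as a block, 0 members were called in footprints or RNA (medians -0.03 and -0.0024). With the culture as a block, 0 were called in the ratio (median -0.03), and 71 were higher and 1 lower in footprints than RNA in WT and in DKO (medians 1.02 and 1.01). Replicate differences of WT and DKO correlated at -0.137 in footprints and -0.114 in RNA, and crossing the numbers, an alternative added after seeing the data, gave 0 member calls in both.

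Spread and copy ratios in WT moved with length. Per transcript length, the footprint SDs were 0.86 (I), 0.76 (II), 1.01 (III) and 0.64 (IV), and relative to the single-copy median alpha stood at 1.12 in footprints and 1.11 in RNA, beta at 1.97 and 1.96 and c at 4.77 and 2.89. With 30 bases less of coding length, III had 1.25, alpha 0.744 and beta 0.868 in footprints. With the most counted coding isoform, footprint SDs were 0.97 (I), 0.87 (II), 1.29 (III), 0.62 (IV) and 0.73 (V), RNA SDs 0.85 (I) and 0.76 (II), alpha 0.925 in footprints, beta 1.13 and in RNA 1.70, and c 4.18 and 3.20. With Ndufa4 moved to complex IV, complex I had SDs of 1.02 in footprints and 0.69 in RNA. The values of c and beta by library, which leave out the other replicate, were 3.69 to 3.81 and 0.950 to 0.979 in footprints, 2.78 to 2.83 and 1.90 to 1.91 in RNA, and those of alpha 0.820 to 0.835 and 1.07 to 1.09. The SDs by library in footprints and then RNA were 1.09 to 1.10 and 0.76 to 0.78 (I), 0.98 to 0.98 and 0.40 to 0.59 (II), 1.14 to 1.20 and 0.93 to 0.98 (III), 0.999 to 1.07 and 0.50 to 0.53 (IV), and 0.79 to 0.84 and 0.81 to 0.84 (V).

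Depth limits only the rare paralogs: 6 members had too few counts to test, and Cox7a1 had 5 to 45 counts per library.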
